A study of Mus musculus with 6 samples.

Results

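The genes described here are 10 components of the circadian clock, namely Clock, Dbp, Tef, Nr1d1, Nr1d2, Per1, Per2, Per3, Cry1 and Cry2. They were chosen by name, by matching the Ensembl gene ID in each row to the gene symbol, and are 10 of the 18437 mRNAs listed in at least 1 of 6 mouse Ribo-seq libraries. Ribo-seq sequences the mRNA fragments that translating ribosomes protect from RNase I, so the values describe ribosomes on an mRNA and not the amount of the mRNA. The libraries came from untreated wild-type C57BL/6J mice aged 4 weeks, with 1 library from whole-tissue lysate for each of 6 organs: brain, heart, lung, kidney, colon and small intestine. Samples of macrophages, which the study also profiled, were not analysed here. The number of mice behind each library and the time of day of collection are not given in the sources used here, so tissue and time of day cannot be told apart. Because a tissue is represented by a single library, replicate error could not be estimated and tissues were not tested against each other.

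In mammalian cells the clock is a feedback loop of transcription. The CLOCK protein, or its relative NPAS2, pairs with BMAL1 (gene Bmal1, also called Arntl) and activates genes through E-boxes in their promoters, among them the Per and Cry genes, whose proteins then repress the CLOCK and BMAL1 pair. The same pair drives Nr1d1 and Nr1d2, which encode the REV-ERB repressors of Bmal1, and drives Dbp, which with Tef and Hlf encodes the PAR bZIP activators that bind D-boxes, while NFIL3 represses through the same boxes. As a result, Dbp, Nr1d1 and the Per genes generally peak in tissues of mice at times when Bmal1 and Npas2 are low, with Nr1d1 and Dbp ahead of Per2, and Per2 ahead of Cry1, whereas Clock changes little over the day in many tissues. The comparison of the libraries asks whether the activating and the repressing genes point to 1 time of the cycle in all tissues.

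Promoter windows are shown first, because their letters are those by which the activating pair and the D-box factors are known to reach such genes. A match is a description of the sequence and not a shown site. RefSeq promoters on GRCm38.p6, covering the bases around each transcription start, held 9 of the 10 genes with 13 promoters. Per2 had no entry there. Both strands were searched for the E-box CACGTG, its variant the E-prime box CACGTT, and the D-box TTATGTAA. The E-box letters occurred in 7.15% of 32851 promoters, the E-prime letters in 4.68% and the D-box letters in 0.938%. The windows below run 5′ to 3′ on the strand of the gene, with the match in capitals (AACGTG is CACGTT read on the other strand).
Per1 E-box, 166 bases before the first of its 2 starts, chr11:69098757-69098814, plus strand: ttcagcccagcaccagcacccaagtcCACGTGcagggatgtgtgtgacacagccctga
Tef E-box, 127 bases before the first start, chr15:81802520-81802577, plus strand: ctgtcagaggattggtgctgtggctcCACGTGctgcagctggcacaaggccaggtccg
Tef E-box, 138 bases before the other start, chr15:81811250-81811307, plus strand: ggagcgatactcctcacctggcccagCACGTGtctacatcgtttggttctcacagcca
Cry1 E-box, 60 bases before the start, chr10:85185083-85185140, minus strand: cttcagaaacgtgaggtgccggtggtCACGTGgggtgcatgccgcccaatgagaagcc
Nr1d1 E-prime box, 28 bases before the start, chr11:98775378-98775431, minus strand: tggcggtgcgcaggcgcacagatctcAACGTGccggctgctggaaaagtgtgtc
Cry2 E-prime box, 166 bases before the start, chr2:92434204-92434261, minus strand: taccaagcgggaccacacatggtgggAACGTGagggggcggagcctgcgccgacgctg
Per3 D-boxes, 205 and 158 bases before the start, chr4:151044790-151044896, minus strand: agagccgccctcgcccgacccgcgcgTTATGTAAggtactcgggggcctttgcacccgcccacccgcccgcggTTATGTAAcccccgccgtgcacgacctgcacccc
The Cry1 window also holds an E-prime box, left in small letters as aacgtg, 79 bases before the start. Per3 was 1 of 7 promoters among all 32851, a share of 0.0213%, with at least 2 D-box matches. None of the 3 motifs was found at the other start of Per1, or at any start of Clock, Dbp or Nr1d2 in the table, which says only that the letters are not within these stretches.

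RPKM (reads of an mRNA on its coding sequence, or CDS, per length and per read on all CDSs) times CDS length gave whole reads for all values, which recovered between 4504853 reads (library labelled colon) and 10635031 reads (library labelled brain). The 10 clock genes together took between 317 and 1284 of these reads, a small share of each library. Of 3 defining markers per tissue, all 3 were highest under their own label for heart and for lung only. Brain markers were highest under the label small intestine, colon markers under kidney, kidney markers under colon and small intestine markers under brain, where the brain marker Gfap had no reads. The summed RPKM of the 3 brain markers was 11.9 under the label brain, against 30098 for the heart markers and 60275 for the lung markers under their own labels. Libraries are therefore given under their labels, the comparison of the libraries labelled heart and lung is given separately, and no level is assigned to brain, colon, kidney or small intestine as a tissue.

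The libraries also differed in how many mRNAs they held, between 11520 with reads (labelled brain) and 15028 (labelled small intestine). Among mRNAs with a mean of 50 to 150 reads in the other 5 libraries, 29.6% had under 3 reads under the label brain, 25.8% under lung and 22.8% under colon, but between 7.60% and 9.44% in the remaining 3. A clock gene at or near 0 in 1 of the first 3 libraries was therefore in the company of many other mRNAs. Intervals below are 95% intervals from the recovered reads, and they cover counting error only, because the reads carry no molecular identifiers. The data are bulk, so fewer cells of a type and less RNA per cell cannot be told apart, and without RNA-seq of the same tissues, which was not used here, neither can more mRNA and more ribosomes per mRNA.

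Clock, the DNA-binding partner of BMAL1, had the smallest range of the 10. Its gene lies on GRCm39 at chr5:76342860-76452846 on the minus strand. The RPKM was 2.97 under the label brain, 1.64 under colon, 3.19 under heart, 4.01 under kidney, 2.72 under lung and 4.28 under small intestine. The highest value was 2.61-fold the lowest (interval 1.57 to 4.54), and no neighbouring pair in the order of libraries differed beyond counting error.

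Bmal1, the gene of its partner, and Npas2, that of its relative, varied far more. Bmal1 had 8.27 RPKM under the label brain, 0.935 under colon, 5.92 under heart, 6.94 under kidney, 0.0681 under lung, from 1 read, and 3.17 under small intestine. The ratio of the libraries labelled brain and lung was 121, with a wide interval of 21.5 to 4823. Npas2, which can stand in for Clock, had 3.38 RPKM under the label brain, 4.72 under colon, 1.45 under heart, 3.12 under kidney, 0 reads under lung, where 3 reads would give 0.159 RPKM, and 1.34 RPKM under small intestine. Bmal1 and Npas2 were thus both lowest under the label lung, and Bmal2, a paralog of Bmal1, was highest there with 7.07 RPKM.

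Among the PAR bZIP factors, Tef had the highest RPKM of the 10 genes in every library but the kidney-labelled one, where Cry1 was higher. Tef lies at chr15:81686622-81711064 on the plus strand of GRCm39. Its RPKM was 17.6 under the label brain, 36.9 under colon, 17.5 under heart, 5.84 under kidney, 43.7 under lung and 40.7 under small intestine. Lung, small intestine and colon by label led the order and neighbours among them did not differ beyond counting error, brain and heart lay below them, and the kidney-labelled one lay lowest, 7.48-fold under the highest (5.37 to 10.7). With median-of-ratios size factors in place of all CDS reads the same 2 libraries differed by 4.80-fold, and the highest was then small intestine by label, 7.11-fold above kidney (5.09 to 10.2).

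Dbp, a PAR bZIP gene known for a strong daily rhythm, had the fewest reads of the 10, with a mean of 9.67 reads per library. It lies at chr7:45354512-45359627 on the plus strand of GRCm39. Reads were 32 under the label small intestine (4.29 RPKM), 17 under colon (3.87), 7 under heart (0.877), 2 under kidney (0.270) and 0 in those labelled lung and brain, and in the last it was not listed. The level under the label small intestine was at least 10.8-fold that under the label lung, taking 3 reads as the limit, and at least 17.1-fold with size factors. The libraries thus fell into an upper pair, small intestine and colon by label, and a lower group, with the step between colon and heart the only one between neighbours beyond counting error. Of the CDS of Dbp, 19.7% of the 29-base stretches also lie, antisense, in the mRNA of Sphk2. The Methods leave out multi-mapped reads, and whether a match on the opposite strand counted as one is not given in the sources used here.

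**Figure D1:**
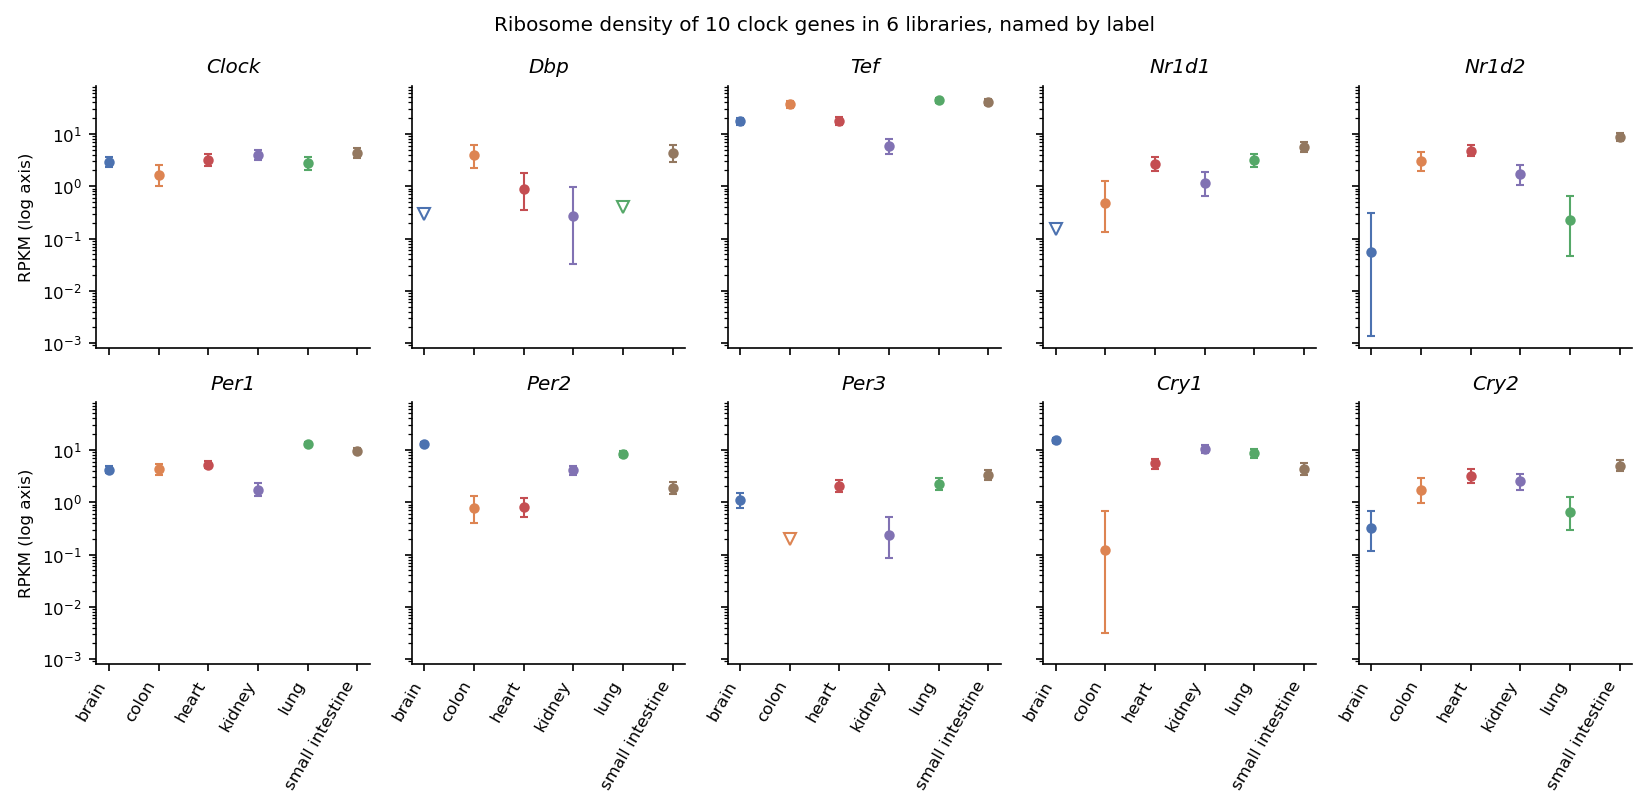
RPKM of each clock gene (vertical log axis) in the 6 libraries named by label (horizontal axis). Points are the recovered values with 95% Poisson intervals, and open triangles mark libraries with 0 reads at the RPKM that 3 reads would give. Clock stays between 1.64 and 4.28 RPKM, whereas Nr1d2 and Cry1 span more than 2 decades down to single reads.

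The REV-ERB genes shared the highest and the lowest library but stood far apart under the label lung. Nr1d1 (chr11:98658752-98666188, minus strand, GRCm39) had 0 reads under the label brain, 0.481 RPKM under colon, 2.72 under heart, 1.14 under kidney, 3.16 under lung and 5.60 under small intestine. The top value was at least 36.6-fold the 3-read limit of the brain-labelled library. Nr1d2 (chr14:4230545-4266624, plus strand) had 0.0544 RPKM under brain, from 1 read, 3.08 under colon, 4.81 under heart, 1.68 under kidney, 0.225 under lung, from 3 reads, and 8.86 under small intestine, and the ratio of its highest to its lowest library was 163 (28.6 to 6483). Both peaked under the label small intestine and were lowest under brain, but Nr1d1 was second highest and Nr1d2 second lowest under lung. Nr1d1 shares 197 bases of CDS, 10.7% of its length, with Thra on the opposite strand, and 62.6% of its 29-base stretches lie antisense in the Thra mRNA. Thra, which encodes a thyroid hormone receptor, had 220 RPKM under the label small intestine and between 25.9 and 55.1 in the others, and its part in the Nr1d1 values was not tested.

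The Per genes, which encode the core of the repressor complex, ranked the libraries in different orders. Per1 (chr11:68986035-69002300, plus strand) had 4.15 RPKM under the label brain, 4.30 under colon, 5.24 under heart, 1.74 under kidney, 12.9 under lung and 9.69 under small intestine. Per2 (chr1:91343700-91387069, minus strand) had 13.1 RPKM under brain, 0.765 under colon, 0.810 under heart, 4.06 under kidney, 8.30 under lung and 1.87 under small intestine. Per3 (chr4:151081373-151129140, minus strand) had 1.10 RPKM under brain, no listing under colon, 2.05 under heart, 0.237 under kidney, 2.25 under lung and 3.37 under small intestine. The kidney-labelled library was thus lowest for Per1 and second lowest for Per3, but in the upper 3 for Per2. Per1 was 7.42-fold higher under the label lung than under kidney (5.53 to 10.1), which size factors lowered to 4.77-fold. Per2 was 17.1-fold higher under brain than under colon (9.90 to 32.3), and Per3 under small intestine was at least 16.9-fold above the 3-read limit of the colon-labelled one. Per2, which had the most steps between neighbouring libraries beyond counting error among the 10 genes, 4 of 5, stood apart from Per1 and Per3 through the brain-labelled library, where it was highest. Within libraries, Per1 was 6.47-fold Per2 per length under the label heart (4.23 to 10.3) and 5.17-fold under small intestine (3.86 to 7.06), whereas Per2 was 3.15-fold Per1 under brain (2.64 to 3.76).

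The cryptochromes, the partners of the PER proteins, changed places between libraries. Cry1 (chr10:84967560-85021252, minus strand, GRCm39) had 15.2 RPKM under the label brain, 0.122 under colon, from 1 read, 5.51 under heart, 10.4 under kidney, 8.61 under lung and 4.39 under small intestine. Cry2 (chr2:92233894-92264474, minus strand) had 0.318 RPKM under brain, 1.75 under colon, 3.23 under heart, 2.52 under kidney, 0.656 under lung and 5.01 under small intestine. The library highest for Cry1, labelled brain, was lowest for Cry2. Per length, Cry1 was 47.7-fold Cry2 under the label brain (21.7 to 131), 13.1-fold under lung (6.69 to 29.4) and 4.11-fold under kidney (2.81 to 6.16), while under small intestine the ratio was 0.876, with an interval of 0.610 to 1.26 that spans 1. Under the label colon Cry2 led, with a Cry1 to Cry2 ratio of 0.0698 (0.00165 to 0.459) that rests on 1 read of Cry1.

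Large differences between these libraries were the rule and not particular to the clock. With a mean of at least 20 reads required, 9 of the 10 genes passed, all but Dbp, and 8 of the 9 were at least 4-fold higher in their highest than in their lowest library, against 84.4% of the 12188 mRNAs that passed. The median fold was 16.9 for the 9 genes and 21.4 for all mRNAs, with reads under 3 set to 3. Of the 9 genes, 5 were highest under the label small intestine (20.9% of all mRNAs were), 2 under brain (16.7%) and 2 under lung (26.8%). None was highest in the libraries labelled colon (15.4%), heart (13.0%) or kidney (7.05%). With size factors, the 2 genes highest under lung, Tef and Per1, were highest under small intestine.

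The 7 genes that peak opposite to Bmal1, namely Dbp, Tef, Nr1d1, Nr1d2, Per1, Per2 and Per3, were compared as a group with Clock, Bmal1 and Npas2 inside each library, where the total of reads nearly cancels. The mean log2(RPKM + 0.1) of the 7 output genes minus that of the 3 others was 2.92 under the label lung (approximate interval 2.33 to 3.52) and 1.29 under small intestine (1.02 to 1.56). It was -0.04 under heart (-0.32 to 0.25) and -0.08 under colon (-0.56 to 0.40). In the libraries labelled kidney and brain it was -1.66 (-2.00 to -1.32) and -2.04 (-2.37 to -1.71). The difference therefore varied between the 6 libraries. Where 0 falls depends on the genes chosen, so a sign by itself marks no time of the cycle. Without Npas2, heart by label was at -0.54 and colon at 0.53. Without Tef, a choice made after seeing the data, they were at -0.46 and -0.79.

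Under the label lung the difference rested on Bmal1 with 1 read and Npas2 with 0, and it was 4.41 without Clock and 2.00 without Npas2. Under brain it rested on Dbp and Nr1d1 with 0 reads and Nr1d2 with 1. Both are among the 3 libraries in which at least 22.8% of mRNAs of middle abundance had under 3 reads. Their library sizes were not low, at 7730352 and 10635031 reads. The part of such gaps in the difference was not tested. With values under 3 reads set to 3, a choice made after seeing the data, the difference under the label brain moved from -2.04 to -1.46, and the kidney-labelled one then took the lowest place.

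**Figure D2:**
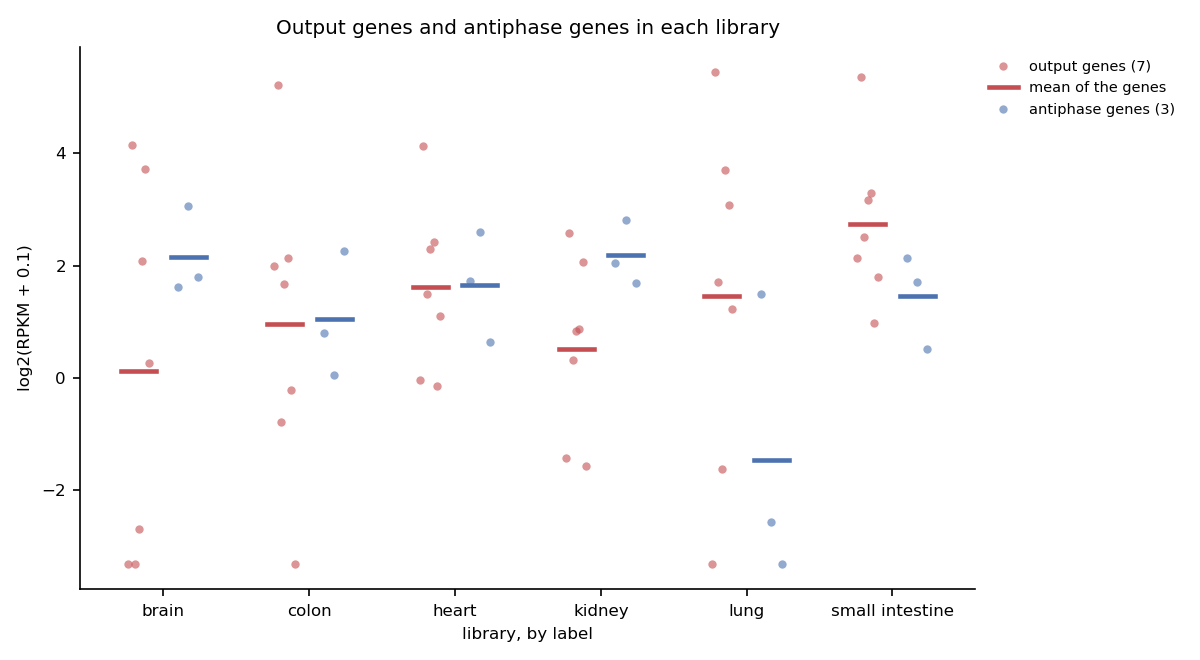
Level of each output gene (red points) and antiphase gene (blue points) as log2(RPKM + 0.1) on the vertical axis, in the 6 libraries on the horizontal axis, with a line at the mean of each group. The red line lies above the blue one in the libraries labelled lung and small intestine and below it in those labelled brain and kidney, and the points within a group spread over several log2 units.

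Within the group, single output genes parted from each other. Under the label lung, Tef, Per1 and Per2 had 43.7, 12.9 and 8.30 RPKM, while Dbp had 0 reads and Nr1d2 had 3. Under the label brain, Per2 and Tef had 13.1 and 17.6 RPKM, while Dbp and Nr1d1 had 0 reads. The ratio of Per2 to Nr1d2 per length was 37.0 (12.5 to 180) under the label lung and 2.42 (1.52 to 4.00) under kidney, but 0.168 (0.102 to 0.270) under heart, 0.248 (0.116 to 0.507) under colon and 0.211 (0.150 to 0.294) under small intestine. It was 240 under brain, from 1 read of Nr1d2 (42.9 to 9502). Per2 led Nr1d2 in 3 libraries and Nr1d2 led Per2 in the other 3, with no interval that spanned 1.

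Dbp against Bmal1, an output gene and its antiphase activator, gave a further ratio that is free of the library total. It was 4.14 (1.69 to 11.1) under the label colon and 1.35 (0.835 to 2.17) under small intestine. It was 0.148 (0.0580 to 0.318) under heart and 0.0390 (0.00465 to 0.144) under kidney. Bmal1 was at least 28.6-fold Dbp under brain, and under lung both were at or under 3 reads and no ratio is given. The output gene chosen mattered under the label colon, where Nr1d1 to Bmal1 was 0.515 (0.113 to 1.92), and under lung, where Nr1d1 to Bmal1 was 46.3 from 1 read of Bmal1 (7.90 to 1870). Nr1d1 to Bmal1 under the label heart was 0.459 (0.309 to 0.670) and under small intestine 1.77 (1.21 to 2.60).

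The libraries labelled heart and lung, the pair whose markers fitted their labels, differed in activator and in repressor genes. Per2 was 10.2-fold higher under the label lung (8.30 against 0.810 RPKM, interval 6.78 to 16.2). Tef was 2.50-fold higher there (2.03 to 3.10) and Per1 2.46-fold (2.05 to 2.97). Genes with more ribosomes under the label heart included Bmal1 (5.92 against 0.0681 RPKM, 86.9-fold, 15.2 to 3470, from 1 read in the other), Npas2 (at least 9.13-fold), Nr1d2 (21.4-fold, 7.02 to 106, from 3 reads in the other) and Cry2 (4.93-fold, 2.39 to 11.4). Dbp had 7 reads against 0. The intervals for Clock (0.853 for lung over heart, 0.585 to 1.24), Nr1d1 (1.16, 0.744 to 1.82) and Per3 (1.10, 0.746 to 1.61) spanned 1. The output genes therefore split, with 3 higher under the label lung, 2 higher under heart and 2 with an interval across 1.

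Against all mRNAs these differences were not rare. Per2 was 1 of 9 genes at least 4-fold higher under the label lung, as were 21.2% of the 12188 mRNAs, and Nr1d2 and Cry2 were 2 of 9 at least 4-fold lower, as were 16.5%. With reads under 3 set to 3, 4.05% of all mRNAs lay as low as Bmal1 or lower. The corresponding share was 5.17% for Nr1d2, and 8.61% of mRNAs rose as far as Per2 or farther. Scaling by median-of-ratios size factors in place of all CDS reads lowered every ratio of lung over heart by 1.55-fold. With it Per2 was 6.59-fold (4.36 to 10.4), Per1 1.58-fold (1.32 to 1.91) and Tef 1.61-fold (1.31 to 1.99) higher under the label lung, Cry1 went from 1.56-fold (1.17 to 2.09) to 1.01-fold (0.753 to 1.35), and Clock was 1.82-fold higher under heart (1.25 to 2.66).

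**Figure D3:**
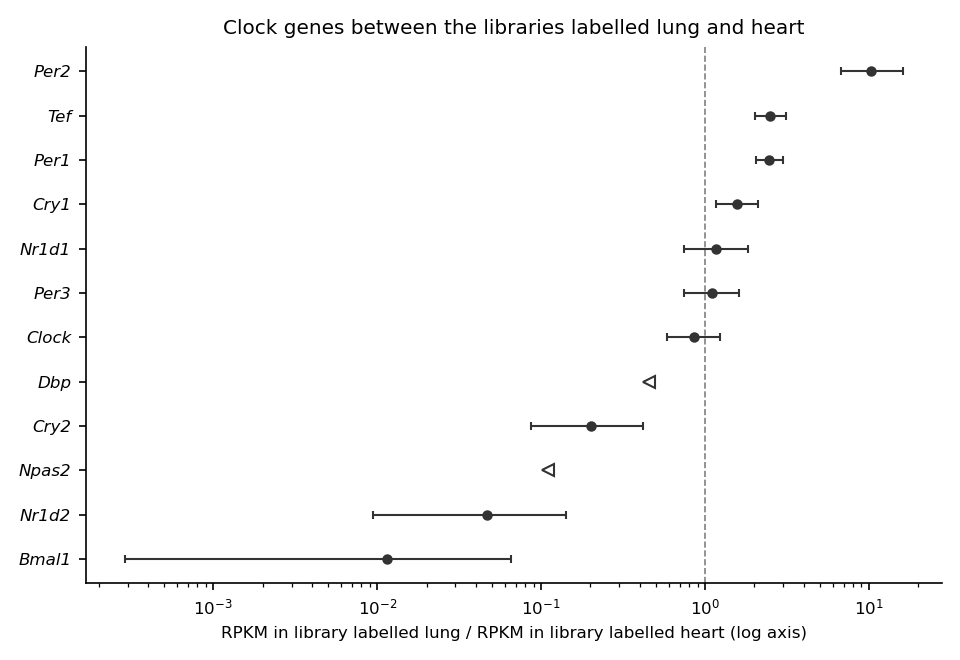
RPKM under the label lung over that under the label heart (horizontal log axis) for the 10 clock genes, Bmal1 and Npas2 (vertical axis). Points carry 95% intervals from the recovered reads, open triangles are upper limits for genes with 0 reads under the label lung, and the dashed line marks a ratio of 1. Per2 lies farthest to the right at 10.2, and Bmal1 and Nr1d2 farthest to the left.

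Rank correlations over the 6 libraries described which genes shared a pattern, with n = 6 libraries of different tissues that share a preparation, and carry no p. Of the 45 pairs among the 10 genes, 30 had a positive Spearman's rho and 15 a negative one. Within the 7 output genes 17 of 21 pairs were positive, and 6 of the 7 were negative with Bmal1. Over all pairs of the 12188 mRNAs 50.7% were positive, and 57.9% of mRNAs were negative with Bmal1. With Pearson's r on the log2 scale the counts were 14 of 21 and 5 of 7. Per2 was negative with the output genes Dbp and Nr1d2 (rho -0.77 with the latter).

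Dbp, Nr1d2 and Cry2 formed a set in which rho was between 0.81 and 0.94. Dbp and Nr1d2 had a rho of 0.93 and a Pearson's r of 0.91 on the log2 scale. Without the 2 libraries farthest from its median, Dbp had 7, 2, 0 and 0 reads in the remaining 4, so its correlations could not be checked in this way. Per2 and Cry1 formed a second set, with a rho of 0.89 and an r of 0.71 (0.72 without the 2 libraries farthest from the median of Per2). Dbp was negative with Per2 (rho -0.81, r -0.87) and with Cry1 (rho -0.84, r -0.72). Tef, Nr1d1, Per1 and Per3 were a looser set, with rho between 0.49 and 0.83. Tef and Per1 had a rho of 0.83 and an r of 0.88, which fell to 0.55 without the 2 farthest libraries. The r of Tef was 0.28 with Nr1d1 and 0.26 with Per3. The set was not sharply bounded, since Nr1d1 had a rho of 0.66 with Cry2 and 0.60 with Nr1d2. The 3 genes with an E-box in the printed windows did not all share a pattern. Cry1 had a rho of -0.37 with Tef (r -0.43) and -0.43 with Per1, where r was near 0 (-0.002). Npas2 was negative with Nr1d1 (rho -0.89, r -0.54, and -0.36 without the 2 farthest). These sets were picked out after their values were seen.

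**Figure D4:**
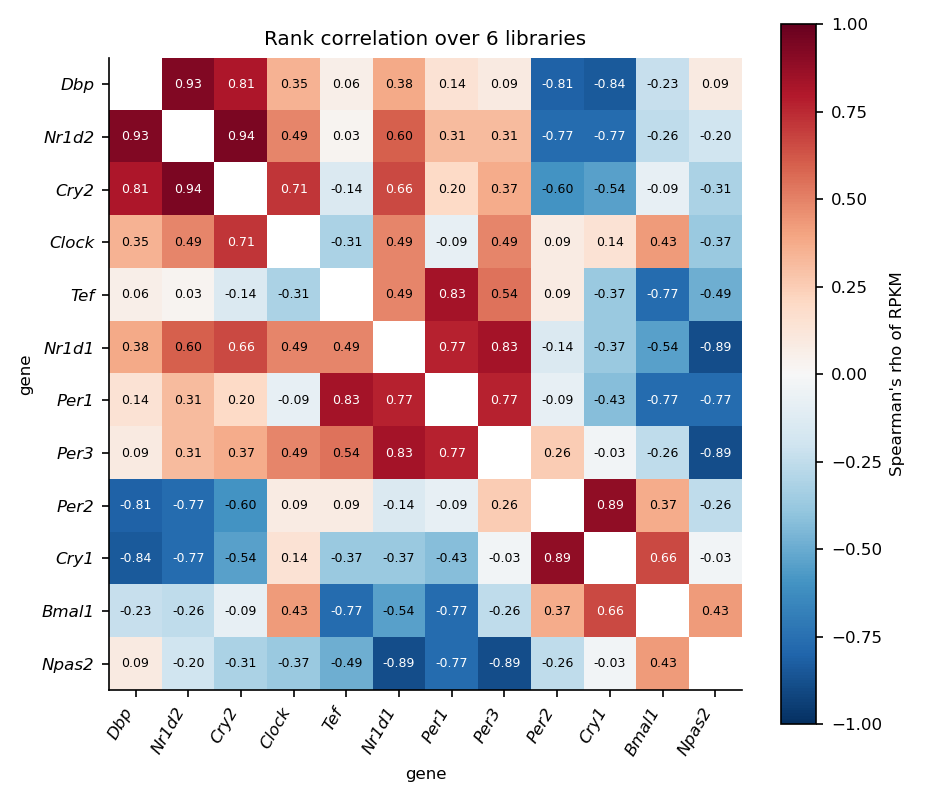
Spearman's rho of RPKM over the 6 libraries for each pair of the 10 clock genes, Bmal1 and Npas2, with red for positive and blue for negative values. Dbp, Nr1d2 and Cry2 share a red block at the top left, and Per2 and Cry1 are blue against Dbp and Nr1d2.

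The 5 mRNAs whose log2(RPKM + 0.1) followed that of Dbp most closely among 12188 were Cxxc5, Tsr2, Hs6st2, Fndc4 and 4933427D14Rik, with Pearson's r between 0.97 and 0.98 over the 6 libraries. Among the 10 genes Nr1d2 came nearest, in place 125 with an r of 0.91, and Cry2 in place 488 with 0.80, and of the 20 further clock genes described below Btrc came nearer than both, in place 74 with 0.92. Per2 lay near the other end, in place 11844 with -0.87.

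A list of 20 further clock genes gives the surroundings. Of these, 17 had a mean of at least 20 reads, and 15 of the 17 were at least 4-fold higher in their highest than in their lowest library, against the 84.4% of all mRNAs. The median fold was 10.4. Like the 10 genes, none of the 17 was highest in the libraries labelled heart (13.0% of all mRNAs were) or kidney (7.05%). Bhlhe41, just under the filter with a mean of 19.7 reads, was highest under the label heart with 5.96 RPKM. Of the 17, 5 were highest under the label small intestine (20.9% of all mRNAs), 5 under brain (16.7%), 4 under lung (26.8%) and 3 under colon (15.4%).

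The D-box pair of activator and repressor showed a split of its own. Hlf, the remaining PAR bZIP gene, had 9.90 RPKM under the label small intestine, 8.19 under lung, 3.26 under colon, 0.829 under heart and 0 reads in those labelled brain and kidney. Nfil3, the D-box repressor, was highest under the label lung with 19.9 RPKM, followed by the heart-labelled one with 11.9, and lay between 1.90 and 3.36 in the other 4. Nfil3 to Hlf per length was 14.4 under the label heart (6.43 to 39.8) and 2.43 under lung (1.80 to 3.32), but 0.229 under small intestine (0.137 to 0.369), the only library in which Hlf led beyond counting error.

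The ROR genes encode activators that compete with the REV-ERB proteins for the same sites. Rora had 9.34 RPKM under the label small intestine, 8.99 under lung, 5.22 under heart, 3.68 under colon, 1.43 under kidney and 0.120 under brain. Rorb, with a mean of 5.83 reads, had 29 reads under the label small intestine, 6 under heart and 0 elsewhere. The top neighbours in the Rora order, small intestine and lung by label, did not differ beyond counting error.

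Among genes whose products act on clock proteins, Fbxl21 ranged at least 12.6-fold. Csnk1d, which encodes a kinase of PER proteins, had between 9.90 RPKM (library labelled heart) and 34.1 (brain), a 3.45-fold range (2.78 to 4.31), and Csnk1e had between 15.5 (kidney) and 64.8 (small intestine). Of other rhythmic genes, Bhlhe40, an E-box repressor, was highest under the label brain with 71.5 RPKM and lowest under small intestine with 11.1, and Usp2, a deubiquitinase gene with a daily rhythm, had 50.2 RPKM under colon and 2.16 under lung.

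The CDSs of the 10 genes spanned a wide range of base composition, a property the choice of genes did not use. GC3, the share of codons that end in G or C, was lowest in Clock at 38.5% and Nr1d2 at 44.8%, and highest in Tef at 74.4% and Dbp at 70.6%, against a median of 58.9% over 18161 mRNAs. Dbp and Nr1d2, the pair with a rho of 0.93, thus lay on opposite sides of that median, and so did Per2 (67.0%) and Cry1 (50.5%). Kri1, a gene of ribosome biogenesis, took between 0.400% of the reads (library labelled lung) and 22.1% (library labelled kidney), which lowers the RPKM of every other mRNA there but leaves the ratios within a library as they are.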

How the data were processed

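Ribosome footprints of 6 mouse tissues were sequenced, with 1 library per tissue. The authors deposited 1 RPKM value per mRNA, computed on the CDS. Per the labels, reads were trimmed with cutadapt and aligned with STAR to GRCm39. The Methods, written for the macrophage libraries and taken to hold here, name Ensembl release 107, a minimum read length of 15 nt and at most 2 mismatches, with multi-mapped reads left out. Matching the same mRNAs to GENCODE release M39 gave names for 18424 of 18437.

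Reads were recovered as RPKM times CDS length over the value of 1 read. A value counted as whole within 0.01, and an mRNA not listed had 0 reads. Intervals are exact Poisson for RPKM and exact conditional binomial (Clopper-Pearson) for ratios, at 95%. The interval of a group difference is a normal approximation from the reads. A gene at 0 was bounded with 3 reads. The pseudocount was 0.1 RPKM, the filter a mean of 20 reads and the fold 4. No test was run, because each tissue has 1 library. Groups followed the labels. Genes named were the 10 members, 20 further clock genes, the 5 mRNAs most like Dbp, 18 tissue markers, and Kri1, Thra and Sphk2 where a value rests on them. The members and lists were chosen with earlier results of these data known. Read recovery and the fold call, run on simulated data of 6 libraries, recovered 100% of reads and called 100% of 200 changed mRNAs. How the call behaves for folds close to 4, or with the noise of real libraries, was not tested. Some of the further clock genes are counted but not reported by name here. Alternatives covered scaling, pseudocount, filter, fold, gene lists and thinning to 4504853 reads. Scripts ran in Python 3.11.15 with pandas 2.3.3, scipy 1.17.1 and numpy 2.4.6, and plots were drawn with matplotlib 3.10.9.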

Additional observations from a re-analysis of the deposited data

How the results depend on the processing

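The 6 differences between the output group and the antiphase group kept the library labelled lung highest under all 11 alternatives, while the lowest was that labelled brain under 8 and that labelled kidney under 3. No difference whose interval excluded 0 changed sign. A pseudocount of 1 RPKM gave -0.80 for brain, -1.06 for kidney and 1.70 for lung by label, and one of 0.01 RPKM gave -3.16 for brain and 3.86 for lung. Medians over genes gave -1.54 for brain, 0.87 for colon, -1.21 for kidney, 4.28 for lung and 0.80 for small intestine. Leaving out Clock gave 4.41 for lung and 1.63 for small intestine. Leaving out Npas2 gave 0.53 for colon, -0.54 for heart, 2.00 for lung and 0.83 for small intestine. Without Nr1d1 brain was at -1.46. With the 7 repressor genes (Per, Cry and Nr1d genes) in place of the output group, colon was at -1.30, kidney at -1.14 and small intestine at 0.87. Added after seeing the data, leaving out Tef gave -2.71 for brain, -0.79 for colon, -0.46 for heart, -2.00 for kidney, 2.26 for lung and 0.86 for small intestine, and setting reads under 3 to 3 gave -1.46 for brain.

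The log2 ratio of Dbp to Bmal1 was above 0 in the library labelled colon. Values there were below 0 for Nr1d1 to Bmal1 (-0.96), Per3 to Bmal1 (at most -2.23, with 0 reads of Per3) and Dbp to Npas2 (-0.29). The intervals of the ratios of Nr1d1 to Bmal1 (0.113 to 1.92) and Dbp to Npas2 (0.445 to 1.44) spanned 1. Only the value with Per3 was thus below 0 beyond counting error. Other pairs also moved the value. In the library labelled brain, with 0 reads of Dbp, Dbp to Clock was at most -3.36, Dbp to Npas2 at most -3.55 and Per3 to Bmal1 -2.91. The value also moved in the library labelled heart (Nr1d1 to Bmal1 -1.12, Per3 to Bmal1 -1.53, Dbp to Npas2 -0.72). It moved in that labelled kidney (Nr1d1 to Bmal1 -2.60) and in that labelled small intestine (Dbp to Npas2 1.68). Thinning gave at most -3.52 for brain, and reads not divided by length gave -0.52 for small intestine. The cause was not tested.

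With a mean of 100 reads required, 4 of 4 genes were past 4-fold, against 77.9% of 7528 mRNAs. Of 50 recomputed ranges from highest to lowest library, 13 moved beyond their interval. Of these, 9 used the libraries labelled heart and lung only, where the log2 values were between 0.13 and 4.42. A range over these libraries alone cannot exceed the range over all, so those 9 say nothing about the processing. With size factors 2 moved, Tef to 2.26 and Per1 to 2.25. On thinning 2 moved, Dbp to at least 2.58 and Nr1d1 to at least 3.97. Both are lower limits set by 3 reads, because the lowest library had 0 reads. The number of genes highest in the library labelled lung went from 2 to 1 without Kri1 in the total and to 0 with size factors. That for kidney rose to 1 without Kri1. That for small intestine fell from 5 to 3 on thinning, where 7 genes passed the filter in place of 9. Pearson's r in place of rho made 2 output genes positive with Bmal1. Few reads limit Dbp throughout, and Nr1d2, Cry1, Bmal1 and Npas2 in the libraries where they had 3 reads or fewer. No paired analysis was possible because the tissues have 1 library each.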
